A study of Mus musculus with 4 samples.

Results

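The stathmin family comprised 4 genes, Stmn1, Stmn2, Stmn3 and Stmn4, out of 33565 genes listed in each count matrix. The 4 genes were taken by symbol, and the family was chosen by its measured levels in these same cells, so its levels, its spread over cells and its co-variation are given as descriptions without a test. The study encapsulated single cells in hydrogel capsules, barcoded their polyA RNA by a split-and-pool procedure (CapSeq), and sequenced 3 mouse cell lines in 1 library. N2a (Neuro-2a) is a neuroblastoma line and NIH/3T3 is an embryonic fibroblast line, and both were grown in DMEM with 10% FBS and penicillin-streptomycin. The mESCs were of the E14TG2a line and were kept on gelatin in 15% FBS with LIF, 3 µM CHIR99021, a GSK3 inhibitor, and 1 µM PD0325901, a MEK inhibitor. The first barcode (BC1) told the lines apart, with N2a in plate columns 1 to 4, NIH/3T3 in columns 5 to 8 and mESCs in columns 9 to 12.

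Stathmins bind free tubulin dimers and promote the shrinkage of microtubules, and phosphorylation by mitotic and growth factor kinases switches this activity off. Stmn1 is the cytosolic, widely expressed member and is abundant in proliferating cells, where its phosphorylation accompanies spindle assembly. Stmn2 (SCG10), Stmn3 (SCLIP) and Stmn4 (RB3) carry a membrane-anchoring extension and are known mainly from neurons, where Stmn2 is found in growth cones and regenerating axons. REST is a repressor of neuronal genes that is known to act on Stmn2, and the RNA-binding protein TDP-43, encoded by Tardbp, is known to keep the human STMN2 transcript correctly spliced.

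Barcodes below 1000 UMIs, or with over 20% of their UMIs from mitochondrial genes, were removed. This left 2323 N2a cells, 2037 NIH/3T3 cells and 2137 mESCs, with a median of 6185, 4863 and 4803 UMIs per cell. The kept cells held 17955221, 11697865 and 12322098 UMIs. No barcode was shared between lines (0 barcodes), which the split by BC1 fixed in advance. Each line was 1 sample, so lines were not tested against each other, and cells and BC1 sequences are not replicates of a line. Levels are CPM, the UMIs of a gene summed over the cells of a line and scaled to a total of 1000000 UMIs. Intervals are exact Poisson intervals for levels and exact binomial intervals for shares, both at 95%, and they cover counting error only. The labels were checked against marker genes. All 8 mESC markers were over 2-fold higher in mESCs than in both other lines, Col1a2 reached 460.6 CPM in NIH/3T3 against 0.780 in N2a, and Hand2 reached 404.2 CPM in N2a against 1.11 in NIH/3T3. The noradrenergic enzymes Dbh and Th, on the N2a marker list, were at 0.891 and 4.96 CPM in N2a. Against the lists, Gata3 was lower in N2a (3.84 CPM) than in mESCs (8.44 CPM), and the fibroblast marker S100a6 reached 738.4 CPM in N2a beside 1776 CPM in NIH/3T3.

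Each line had a different set of stathmins. N2a cells expressed Stmn1, Stmn3 and Stmn4 but almost no Stmn2, mESCs expressed Stmn1 and Stmn2 with little Stmn3 or Stmn4, and NIH/3T3 cells expressed Stmn1 with little of the other members. The neuronal member Stmn2 was thus found in the stem cells and not in the neuroblastoma line.

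Stmn1, on chromosome 4 from 134195021 to 134201882 on the plus strand (GRCm39), was detected in all 3 lines. The N2a level of Stmn1 was 337.4 CPM (329.0 to 346.0), the NIH/3T3 level 123.9 CPM (117.6 to 130.4) and the mESC level 79.4 CPM (74.5 to 84.6). At least 1 Stmn1 UMI was found in 78.7% of N2a cells, 44.9% of NIH/3T3 cells and 32.1% of mESCs. These shares depend on depth, and when every cell was thinned to 1000 UMIs they were 28.6%, 11.6% and 6.99%, in the same order. Over the 32 BC1 sequences of a line, Stmn1 ranged from 277.7 to 461.1 CPM for N2a (median 333.0), from 67.1 to 204.5 CPM for NIH/3T3 (median 124.2) and from 53.7 to 118.4 CPM for mESCs (median 77.9). The N2a range lay above both others, whereas the NIH/3T3 and mESC ranges overlapped. The antisense gene 1700021N21Rik overlaps the start of Stmn1 and had at most 1.45 CPM in any line. Whether reads were shared between them was not tested.

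Stmn2, on chromosome 3 from 8574151 to 8626667 on the plus strand, was at 162.1 CPM (155.1 to 169.4) in mESCs, from 1998 UMIs. In N2a it had 6 UMIs in all, or 0.334 CPM (0.123 to 0.727), and in NIH/3T3 7 UMIs, or 0.598 CPM (0.241 to 1.23). It was therefore near the limit of detection in both lines that are not stem cells. Stmn2 was detected in 966 of 2137 mESCs, which is 45.2% (43.1% to 47.3%), against 0.258% of N2a cells and 0.344% of NIH/3T3 cells, although the median depth of N2a cells was the highest of the 3 lines. Over BC1 sequences it ranged from 119.1 to 249.8 CPM in mESCs, with a median of 159.6, and it was at 0 in 26 of 32 BC1 sequences of N2a and in 27 of 32 of NIH/3T3. The mESC range did not overlap with that of another line. The standard deviation over the mESC BC1 sequences was 28.7 CPM, against 21.2 CPM from counting alone. In barcodes of 10 to 100 UMIs, too few for an intact cell, Stmn2 was at 141.1 CPM (115.0 to 171.3) in the mESC matrix, 2.09 CPM in the N2a matrix and 1.04 CPM in the NIH/3T3 matrix. The background of the mESC matrix thus carried Stmn2 at a level whose interval overlapped that of the cells. Intervals of background and cells also overlapped for Stmn1 in each line and for Stmn3 and Stmn4 in N2a.

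**Figure D1:**
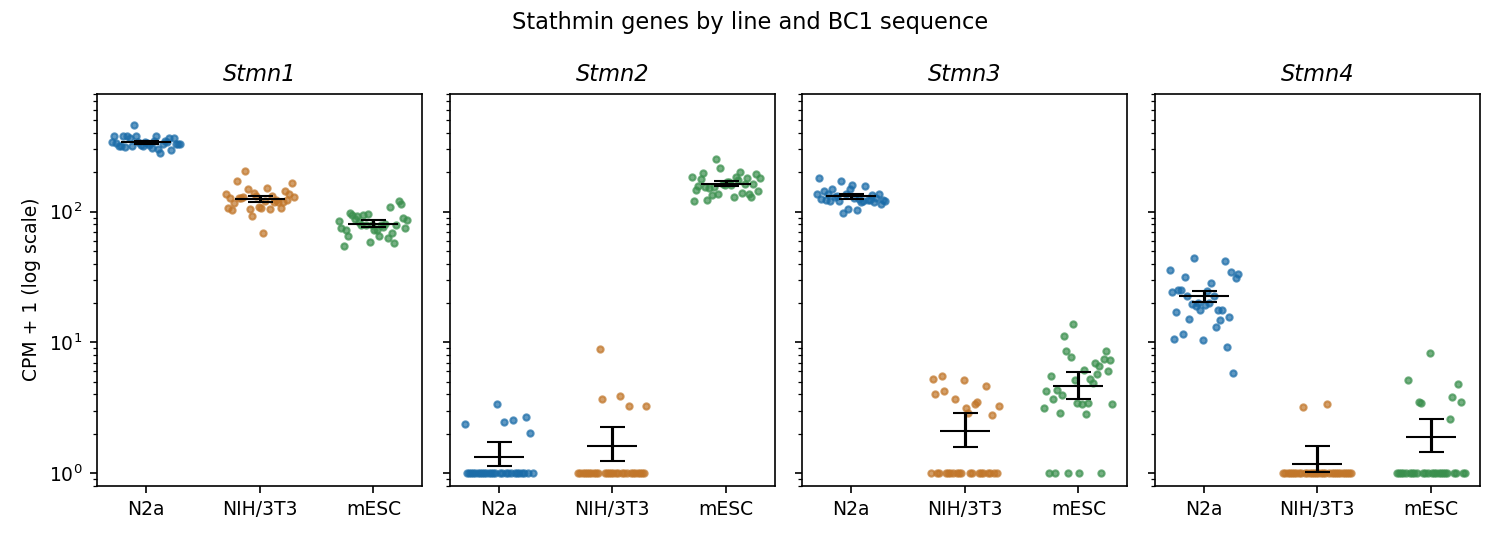
Level of each stathmin gene in the 3 lines, as CPM plus 1 on a log axis, with a point for each of 32 BC1 sequences of a line and a black bar for the level of the line with its exact Poisson 95% interval. Stmn2 points lie between 119.1 and 249.8 CPM in mESCs and mostly at 0 elsewhere, and Stmn3 and Stmn4 are high in N2a alone.

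Stmn3, on chromosome 2 from 180948247 to 180956293 on the minus strand, was at 129.5 CPM (124.3 to 134.9) in N2a. Its level was 3.65 CPM (2.66 to 4.89) in mESCs, from 45 UMIs, and 1.11 CPM (0.592 to 1.90) in NIH/3T3, from 13 UMIs. It was detected in 53.0% of N2a cells, 1.97% of mESCs and 0.638% of NIH/3T3 cells. Over BC1 sequences it ranged from 97.2 to 179.4 CPM in N2a and reached at most 12.9 CPM in mESCs and 4.51 CPM in NIH/3T3, so that N2a did not overlap with either. The intervals of mESCs and NIH/3T3 did not overlap, but the level in mESCs was near that of the mESC background barcodes, 2.77 CPM (0.335 to 9.99).

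Of the 4 members, 1 was in the RefSeq promoter table (GRCm38.p6), and its window, from 250 bases before to 50 bases after the start of Stmn3, is shown because this gene separates N2a from both other lines. It lies at chr2:181314451-181314750 on the minus strand.

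Stmn3 promoter: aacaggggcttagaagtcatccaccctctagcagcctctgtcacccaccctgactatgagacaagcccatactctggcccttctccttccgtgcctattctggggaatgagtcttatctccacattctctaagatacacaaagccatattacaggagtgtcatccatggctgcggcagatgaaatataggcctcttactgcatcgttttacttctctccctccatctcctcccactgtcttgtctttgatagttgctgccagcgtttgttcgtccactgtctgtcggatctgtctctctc

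The window held 6 CpG dinucleotides, and 43.6% of 32851 promoters of the table held fewer. Its GC content was 49.7%. A search of both strands found no GC box (GGGCGG), which 35.7% of all promoters held, and no TATAAA, which 13.6% held. No base is in capitals, since none of these letters was found.

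Stmn4, on chromosome 14 from 66581745 to 66599131 on the plus strand, was at 21.4 CPM (19.4 to 23.7) in N2a, from 385 UMIs. It had 11 UMIs in mESCs, or 0.893 CPM (0.446 to 1.60), and 2 UMIs in NIH/3T3, or 0.171 CPM (0.0207 to 0.618). It was detected in 13.1% of N2a cells (11.8% to 14.6%), against 0.468% of mESCs and 0.0982% of NIH/3T3 cells. Over BC1 sequences Stmn4 ranged from 4.84 to 43.5 CPM in N2a, with a median of 18.7, and its highest BC1 value in mESCs, 7.33 CPM, lay within that range. The standard deviation over the N2a BC1 sequences was 9.41 CPM, against 6.36 CPM from counting alone.

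On the log2(CPM + 1) scale, with 2-fold as the limit and genes of at least 10 CPM in 1 of both lines, all 4 members could be compared between mESCs and N2a. Stmn2 was higher in mESCs by 6.93, and Stmn1, Stmn3 and Stmn4 were lower, at -2.07, -4.81 and -3.57. Of 10606 genes compared in that pair, 19.3% were higher in mESCs and 21.7% lower. Between mESCs and NIH/3T3, Stmn2 was higher in mESCs by 6.67, whereas Stmn1 differed by -0.63, which is under 2-fold, and Stmn3 and Stmn4 were too low in both lines to compare. In that pair 20% of 10519 genes were higher in mESCs and 21.6% were lower. Between N2a and NIH/3T3, Stmn1, Stmn3 and Stmn4 were higher in N2a by 1.44, 5.95 and 4.26, and Stmn2 was too low to compare. Of 10459 genes in that pair, 18.1% were higher and 17.9% lower in N2a. Because the family was chosen by these levels, nothing is read from the counts of members against these shares.

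Stmn2 was spread over the mESCs more unevenly than counting would give. If every mESC had held Stmn2 at the same rate per UMI, 980.8 cells would have had no Stmn2 UMI, whereas 1171 had none. Cells with 6 or more Stmn2 UMIs numbered 38, against 11.4, and the highest count was 16 UMIs in 1 cell. The tenth of cells with the most Stmn2 UMIs held 47.4% of them, against 38.1% with 1 rate. A gamma-Poisson distribution, in which the rate varies from cell to cell around a single centre, gave 1131 cells without a UMI and 37.5 cells with 6 or more. The squared coefficient of variation of the rate was 0.600, which is a coefficient of variation of 0.774. Among 792 genes within 1.25-fold of the level of Stmn2 in mESCs, the median of this measure was 0.150, and 97.1% of them lay below Stmn2. Cells with 1 Stmn2 UMI numbered 487 against 531.9 from the gamma-Poisson distribution, and cells with 5 UMIs 43 against 29.0. No distribution with 2 classes of cells was compared, so that a separate class of positive cells was not tested.

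**Figure D2:**
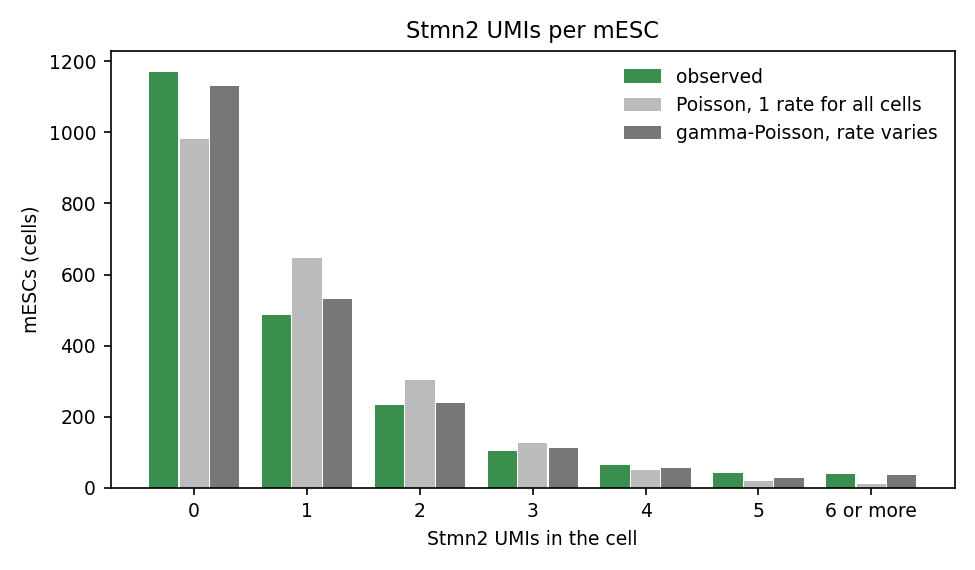
Number of mESCs by their Stmn2 UMIs (x axis), as observed and as computed from each cell's depth with 1 rate for all cells (Poisson) or with a rate that varies between cells (gamma-Poisson). The 1171 cells observed at 0 exceed the Poisson expectation of 980.8 and are near the gamma-Poisson expectation of 1131.

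The share of Stmn2-positive mESCs was higher at each step in depth, up to the deepest cells. It was 16.3% of cells with 1000 to 2000 UMIs, 32.5% with 2000 to 4000, 49.8% with 4000 to 8000, 67.7% with 8000 to 16000, and 86.0% (73.3% to 94.2%) of the 50 cells with 16000 or more. With 1 rate for all cells the shares would have been 21.3%, 38.0%, 59.7%, 81.8% and 95.6%, and with the gamma-Poisson distribution 20.1%, 34.3%, 51.6%, 69.2% and 83.1%. Most of the deepest mESC barcodes thus had at least 1 Stmn2 UMI, but doublets were not called and the background barcodes of the matrix carried Stmn2 at 141.1 CPM. Stmn1 in mESCs was spread less, with a squared coefficient of variation of 0.187, and 38.2% of 1214 genes of like level lay below it. Levels moved with depth for both genes. From the shallowest class of mESCs to the deepest, Stmn1 was at 46.3, 71.8, 76.1, 85.1 and 95.9 CPM, and Stmn2 at 131.5, 151.8, 161.9, 171.5 and 150.9 CPM, so that Stmn2 was highest in cells with 8000 to 16000 UMIs.

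**Figure D3:**
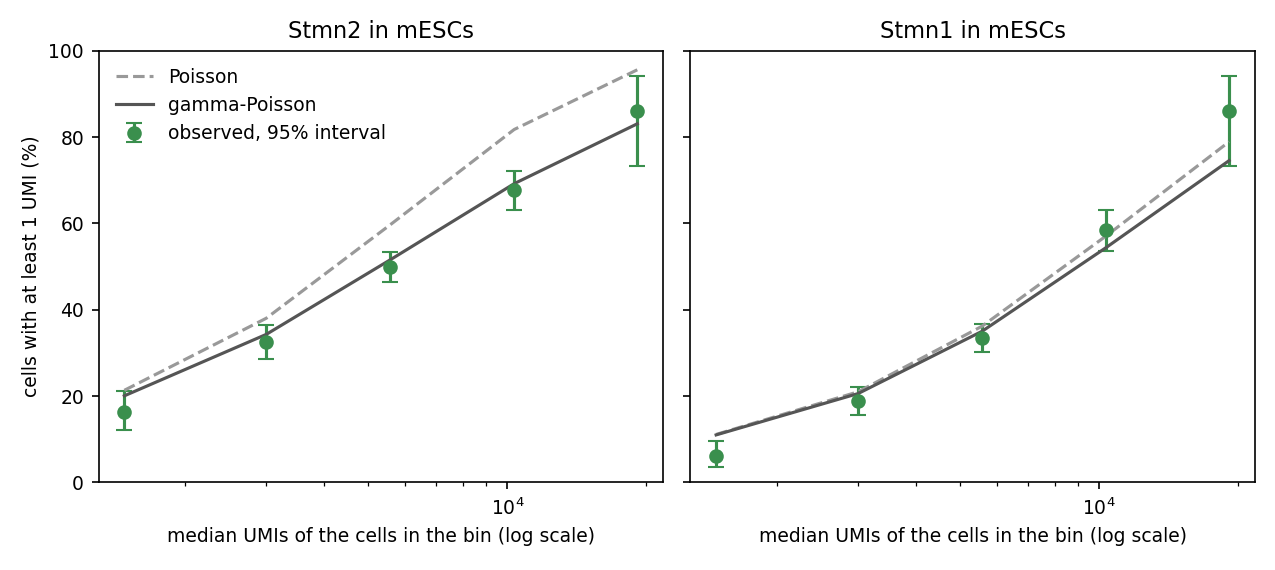
Share of mESCs with at least 1 UMI of Stmn2 (left) and Stmn1 (right) against the median depth of the cells on a log axis, in 5 depth classes with exact binomial 95% intervals. For Stmn2 the points lie below the Poisson line in every class and near the gamma-Poisson line, with 86.0% positive in the deepest class.

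In the other lines the members were spread less unevenly, except Stmn4. In N2a the squared coefficient of variation was 0.113 for Stmn1, 0.111 for Stmn3 and 1.33 for Stmn4, and 50.7%, 35.6% and 94.7% of genes of like level lay below them. In NIH/3T3 it was 0.151 for Stmn1, with 44.9% of genes of like level below it. Stmn1 and Stmn3 thus varied over cells about as much as other genes of their level, and Stmn4 in N2a varied more than most.

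The mESCs were divided into groups with the 4 members left out of the clustering, which gave 3 groups of 1633, 396 and 108 cells. Stmn2 was at 172.5 CPM (164.0 to 181.3) in the largest group, 141.4 CPM (127.8 to 156.0) in the next, and 92.9 CPM (68.3 to 123.5) in the smallest. It was detected in 47.1%, 42.9% and 25.0% of their cells, and in 14.6%, 12.2% and 5.95% after thinning to 1000 UMIs. No group lacked Stmn2 and none held it alone. The middle group was marked by Peg10, an imprinted retrotransposon-derived gene, at 387.9 CPM against 19.6 CPM in the other mESCs. The smallest group was led by Gm12724, Gm21761 and Chrm3. A list of 8 genes known from the 2-cell stage embryo and from rare 2-cell-like cells of stem cell cultures, such as Zscan4c, had a summed level of 1504 CPM in it against 6.55 and 4.63 CPM in the larger groups. None of these 8 was among the 10 leading genes of the group, and 1 of them, Tcstv1, was at 0.0812 CPM over all mESCs. Stmn1 was at 82.1 CPM (76.3 to 88.3), 75.5 CPM (65.7 to 86.4) and 53.4 CPM (35.2 to 77.6) in the same groups. Within the groups the squared coefficient of variation of Stmn2 was 0.513, 0.878 and 0.551, each above the 0.150 of genes of like level in all mESCs. With a finer division into 8 groups, Stmn2 ranged from 98.7 to 193.1 CPM over them.

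From residuals over all 2137 mESCs, few genes varied with Stmn2, and no r was over 0.22. Pearson's r was computed from residuals, which are counts corrected for the depth of the cell, with 7264 genes of at least 20 CPM. An r of 0.1 or more was reached by 25 genes (0.344%) and an r of -0.1 or less by 32 genes (0.441%). All points share 1 library and depth differs between cells, so these values describe the library and carry no p-value. The counts depended on the measure, with 231 genes at 0.1 or more and 19 at -0.1 or less from log(1 + counts per 10000), and 530 and 13 from Spearman's rho. After every cell was thinned to 1000 UMIs, 0 genes passed either limit.

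The 10 genes of highest r with Stmn2 were Epb41l4a (0.219), Klf12 (0.182), Gm46332 (0.173), Ntn1 (0.167), L1td1 (0.160), Vegfc (0.156), Nedd4 (0.146), Fstl1 (0.137), Bach2 (0.135) and Adam23 (0.123). Ntn1 is the axon guidance cue netrin-1, Vegfc a lymphangiogenic growth factor, Fstl1 a secreted BMP antagonist and Adam23 a neuronal surface protein without protease activity. L1td1 is an RNA-binding protein of pluripotent cells, and Nedd4 a ubiquitin ligase. Klf12 and Bach2 are transcriptional repressors.

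The 5 genes of lowest r with Stmn2 were Parm1 (-0.173), Anapc10 (-0.159), Magi1 (-0.142), Calcoco2 (-0.142) and mt-Co3 (-0.139). Anapc10 encodes a subunit of the anaphase-promoting complex, Calcoco2 an autophagy receptor, Magi1 a junctional scaffold, and mt-Co3 a subunit of cytochrome c oxidase encoded in mitochondrial DNA. Parm1 and Calcoco2 were, as Stmn2, nearly confined to mESCs among these lines, at 203.5 and 424.6 CPM there and at most 1.11 CPM elsewhere. The same held among the genes of highest r for L1td1, at 613.5 CPM in mESCs and at most 0.501 CPM elsewhere. Vegfc likewise was at 140.1 CPM and at most 0.171 CPM. Of the 10 highest genes, 7 had their highest level in mESCs, and of the 5 lowest, 4 did. The sum of all 13 mitochondrial genes had an r of -0.125 with Stmn2, and 7 of them were at -0.1 or less on their own. The share of mitochondrial UMIs thus varied inversely with Stmn2. In a fit chosen after seeing the data, which took the mitochondrial sum into account, r was 0.120 or more for the 10 highest genes, -0.137 or less for Parm1, Anapc10, Magi1 and Calcoco2, and -0.0613 for mt-Co3, which is itself part of the sum. From log values and Spearman's rho, mt-Co3 was at -0.145 and -0.183 and the other lowest genes were nearer 0 than from residuals, with r of -0.123 and -0.0968 for Parm1, -0.0620 and -0.0484 for Anapc10, -0.0768 and -0.0900 for Magi1, and -0.0602 and -0.0714 for Calcoco2.

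**Figure D4:**
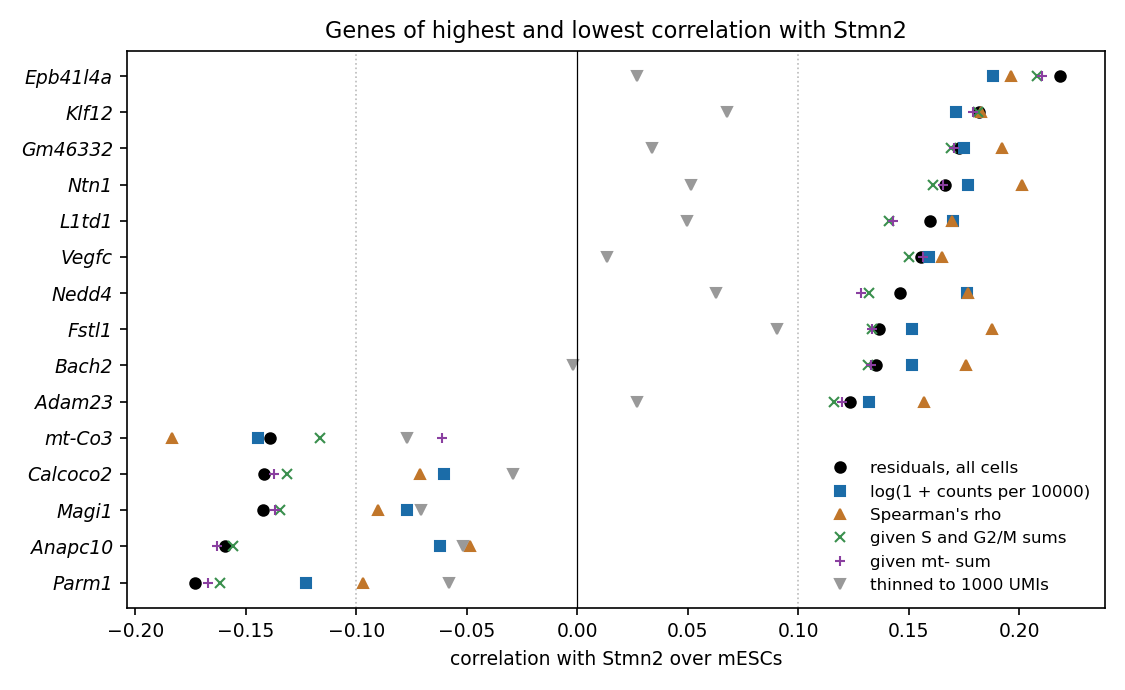
Correlation with Stmn2 over mESCs for the 10 genes of highest and the 5 of lowest r (rows), with each symbol standing for 1 way of computing it and dotted lines at 0.1 and -0.1. The 10 highest genes lie above 0.1 in all but the values from cells thinned to 1000 UMIs, which lie between -0.00196 and 0.0903, whereas of the lowest genes Anapc10, Magi1 and Calcoco2 lie nearer 0 than -0.1 from log values and Spearman's rho.

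The sums of the cell cycle and pluripotency lists each had an r with Stmn2 under 0.1. The summed S phase list had an r of 0.0832 with Stmn2 and the summed G2/M list one of 0.0633, and no gene of either list reached 0.1. The 8 mESC markers together had an r of 0.0995, of which L1td1 alone reached 0.1, and the naive pluripotency genes one of 0.0571. The 2-cell-like list had an r of -0.0738. The neural marker list had an r of -0.0192 as a sum. Of its 2 genes of at least 20 CPM, Nes, an intermediate filament of neural progenitors, had an r of -0.101 and Tubb3 one of 0.0518. The neuronal cytoskeleton list had an r of 0.112 as a sum, with Ncam1 at 0.0937, Nefl at 0.0708 and Tubb3 at 0.0518, and no single gene of the list reached 0.1. Stmn1 and Stmn2 had an r of 0.0262 over mESCs, with both genes detected in 377 cells.

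From residuals and log values, more genes reached an r of 0.1 with Stmn1 in N2a than with Stmn2 in mESCs, and from Spearman's rho fewer did. Many of those with Stmn1 encode ribosomal proteins. Of 7475 genes, 262 (3.51%) had an r of 0.1 or more with Stmn1 and 240 (3.21%) an r of -0.1 or less. Among the highest were Ptma (0.236), Cox7a2 (0.204), Hmgb2 (0.200), Rpl5 (0.199), H2az1 (0.196), Slc25a5 (0.187), Rps24 (0.185), Rpl14 (0.185) and Uqcrb (0.183). Ptma encodes prothymosin alpha, and Hmgb2 and H2az1 encode chromatin proteins of dividing cells. Cox7a2, Slc25a5 and Uqcrb serve mitochondrial respiration. Among the genes at 0.1 or more were 74 of the 95 measured genes of cytosolic ribosomal proteins, a group whose sum had an r of 0.233 with Stmn1. The median length of the gene was 7.08 kb for those at 0.1 or more and 207.8 kb for those at -0.1 or less, against 33.7 kb for all genes. From log values the same counts were 625 and 5, and from Spearman's rho 424 and 37. From residuals, genes at 0.1 or more with Stmn1 were thus shorter, and those at -0.1 or less longer, than all genes by median. The ribosomal protein sum varied in the same direction as Stmn1. The part of gene length and ribosomal protein level in these correlations was not tested. Whether UMIs were counted over exons alone or over whole genes is not given in the sources used here, and the part of this in the values by gene length was not tested. The S phase and G2/M sums had an r of 0.139 and 0.143 with Stmn1, with Top2a at 0.149, Birc5 at 0.124 and Cdk1, the mitotic kinase that phosphorylates Stmn1, at 0.113.

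The other members in N2a were Stmn3, with many ribosomal protein genes among those of highest r, and Stmn4, with few genes. For Stmn3, 130 genes (1.74%) were at 0.1 or more, 59 of them among the 95 ribosomal protein genes, and 90 (1.2%) were at -0.1 or less, with median gene lengths of 6.17 kb and 268.6 kb. From log values these counts were 354 and 0, and from Spearman's rho 1004 and 1. Among its highest genes were Rpl5 (0.175), Rpl27, Rpl14, Rpl17, Ndufa4, Rpl34, Rpl39 and Rpl7a (0.156). For Stmn4, 5 genes (0.0669%) were at 0.1 or more and 0 (0%) at -0.1 or less. These 5 were Neat1 (0.156), a nuclear noncoding RNA, Atf3 (0.140), a transcription factor of the stress response that is also induced in injured neurons, Ube2h (0.135), Nfkb1 (0.108) and Klhl29 (0.102). The count was 1 without the 5% of cells of most UMIs, 10 in cells of at least 2000 UMIs, 11 in cells called by STARsolo's rule, and 225 from Spearman's rho. The G2/M sum had an r of -0.115 with Stmn4, opposite in sign to its r with Stmn1. Among members in N2a, r was 0.0780 for Stmn1 with Stmn3, 0.0224 for Stmn1 with Stmn4, and -0.00342 for Stmn3 with Stmn4.

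From residuals, few genes reached the limit with Stmn1 in the other lines. In NIH/3T3, 2 of 7482 genes (0.0267%) were at 0.1 or more with it, Dynll1 (0.109) and Rps15a (0.103), and 0 (0%) at -0.1 or less. In mESCs, 0 of 7264 genes (0%) were at 0.1 or more and 0 (0%) at -0.1 or less, and the highest r was that of Cacybp (0.0965). Other measures gave more genes at 0.1 or more, 63 in NIH/3T3 and 57 in mESCs from log values, and 148 and 655 from Spearman's rho. Stmn1 had fewer UMIs in both lines, 1449 in NIH/3T3 and 979 in mESCs against 6058 in N2a, and the part of this depth in the lower r was not tested.

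Other genes that shorten microtubules were compared between the lines from a list of 12. Of the 10 with at least 10 CPM in mESCs or N2a, 3 were over 2-fold higher in mESCs and 2 lower, where 19.3% and 21.7% of all genes compared were. Fign, a severing ATPase, was at 269.4 CPM in N2a and 7.63 CPM in mESCs, with NIH/3T3 between them at 42.7 CPM, and the katanin-like Katnal1 was at 28.2, 5.36 and 16.3 CPM in N2a, mESCs and NIH/3T3. The mitotic kinesin Kif2c was at 26.3, 67.3 and 90.3 CPM in N2a, NIH/3T3 and mESCs, and Kif18a at 57.1, 89.1 and 129.3 CPM. Fignl1 was at 55.8 CPM in N2a and 118.3 CPM in mESCs. Against NIH/3T3, 0 of 10 were higher and 2 lower in mESCs, beside 20% and 21.6% of all genes compared. In N2a, 1 was higher and 1 lower than in NIH/3T3, beside 18.1% and 17.9% of all genes.

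Of 19 microtubule-stabilising and plus-end genes compared between mESCs and N2a, 4 were higher in mESCs and 6 lower, beside 19.3% and 21.7% of all genes compared. Map2, a dendritic protein, was at 118.7 CPM in N2a and 1.87 CPM in mESCs, Dclk1 at 127.5 and 1.95 CPM, and Map1b at 1560 and 112.6 CPM. In the other direction, Map7 was at 13.5 CPM in N2a and 249.0 CPM in mESCs, and the widely expressed Map4 at 97.5 and 435.4 CPM. The axonal protein gene Mapt was at 93.1 CPM in N2a and 56.0 CPM in mESCs, against 5.30 CPM in NIH/3T3. From the same list, 4 of 19 were higher and 5 lower in mESCs than in NIH/3T3, beside 20% and 21.6% of all genes. In N2a, 5 of 19 were higher and 2 lower than in NIH/3T3, beside 18.1% and 17.9% of all genes.

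Of kinases and phosphatases known to act on stathmins, 0 of 16 were higher and 4 lower in mESCs than in N2a, beside the same 19.3% and 21.7%. These 4 were Mapk10, the neuronal JNK, at 97.7 CPM in N2a and 1.87 CPM in mESCs, Camk2a at 46.5 and 7.06 CPM, Map3k12, which signals to JNK in injured axons, at 37.9 and 9.90 CPM, and Pak1 at 120.0 and 59.2 CPM. Cdk1 differed by less than 2-fold, at 158.7 CPM in N2a and 222.9 CPM in mESCs. Against NIH/3T3, 1 of 14 was higher and 0 lower in mESCs, beside 20% and 21.6% of all genes compared. In N2a, 4 of 16 were higher and 0 lower than in NIH/3T3, beside 18.1% and 17.9% of all genes.

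Known regulators of the Stmn2 transcript were present in all lines. Rest was highest in the line that expressed Stmn2, at 510.1 CPM in mESCs against 118.7 in NIH/3T3 and 51.5 in N2a. Kdm1a, a histone demethylase of the REST complex, was at 256.9, 62.5 and 162.3 CPM in the same order, and the corepressor gene Rcor2 at 51.5, 25.5 and 20.7 CPM. Tardbp was at 389.5 CPM in mESCs, 286.6 in NIH/3T3 and 315.7 in N2a, under 2-fold apart. Of the 10 genes of this list, 2 were higher and 0 lower in mESCs than in N2a, beside 19.3% and 21.7% of all genes. In mESCs against NIH/3T3, 3 were higher and 0 lower, beside 20% and 21.6% of all genes. In N2a against NIH/3T3, 1 was higher and 1 lower, beside 18.1% and 17.9% of all genes. Over mESCs, r with Stmn2 was 0.0148 for Rest, 0.0138 for Tardbp and 0.0809 for Rcor2, so that none reached 0.1.

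Most other neuronal cytoskeleton and growth cone genes followed Stmn3 and Stmn4 and not Stmn2. Of 23 compared, 18 were lower and 2 higher in mESCs than in N2a, where 21.7% and 19.3% of all genes compared were. The median log2 ratio of the 23 was -4.08, against -0.05 for all genes compared. Syt1, a calcium sensor of synaptic vesicles, was at 499.2 CPM in N2a and 3.65 CPM in mESCs, Dpysl3 at 436.9 and 7.47 CPM, and Snap25 at 178.6 and 0.406 CPM. Growth-associated Gap43, which like Stmn2 is known from growth cones, was at 176.9 and 4.63 CPM. The 2 genes higher in mESCs were those of the light and medium neurofilament subunits. Nefl was at 49.3 CPM in mESCs, 0.223 in N2a and 0.171 in NIH/3T3, and Nefm at 17.4, 0.111 and 0.0855 CPM. Both were, as Stmn2, highest in mESCs and under 1 CPM in the other lines. Elavl2, an RNA-binding protein of neurons, was at 133.7 CPM in mESCs and 117.3 CPM in N2a. Against NIH/3T3, 8 of 13 genes of the list were higher and 4 lower in mESCs, beside 20% and 21.6% of all genes. In N2a, 18 of 21 were higher and 0 lower than in NIH/3T3, beside 18.1% and 17.9% of all genes.

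**Figure D5:**
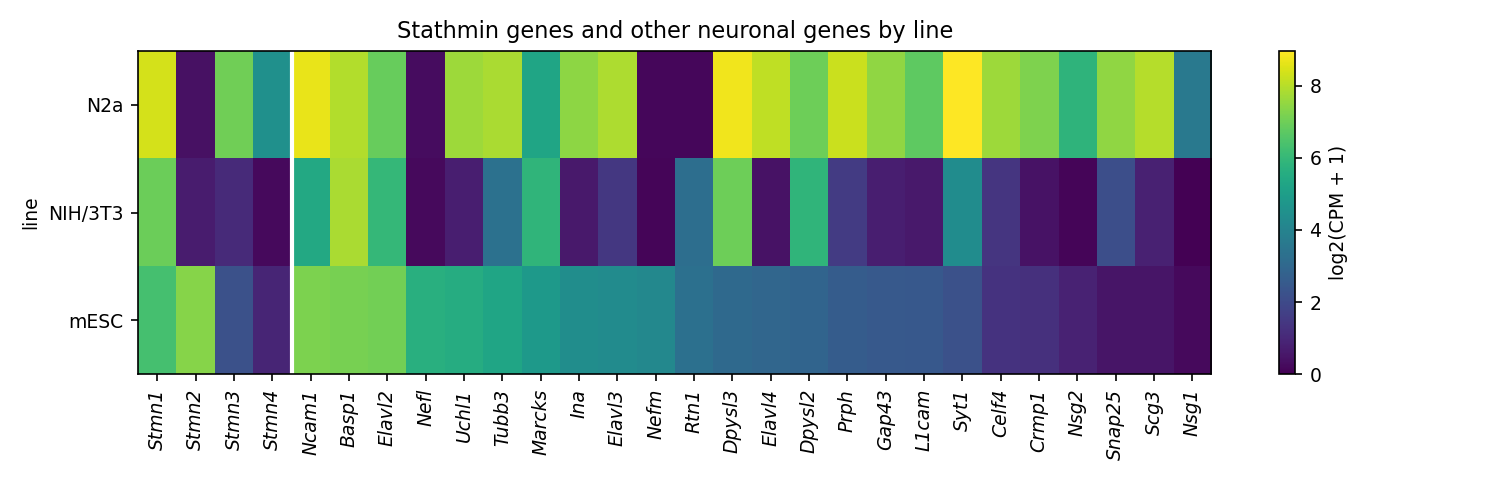
Level of the 4 stathmin genes (left of the white line) and of the 24 genes of the neuronal list (right, ordered by their level in mESCs) in the 3 lines, with colour standing for log2(CPM + 1). Stmn2, Nefl and Nefm are bright in the mESC row and dark in the N2a row, and most of the other genes show the reverse.

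The neighbours of Stmn2 on chromosome 3 did not share its level in mESCs. The nearest gene on the right with UMIs, Hey1, a Notch target, lies 100.3 kb away and was at 0.893 CPM in mESCs and 9.80 CPM in N2a, and the noncoding Gm32496, 66.4 kb away, had 0 UMIs in every line. On the left the nearest annotated genes, 1700010I02Rik and Gm16685, were 554.2 and 759.3 kb away and had 0.162 and 1.22 CPM in mESCs. The neighbours of Stmn3, Rtel1 and Gmeb2, were at 34.4 and 24.5 CPM in mESCs and 42.0 and 41.1 CPM in N2a. Of the genes beside Stmn4, Trim35 was at 61.0 CPM in N2a and 33.6 CPM in mESCs. Gm41183, which starts beside the start of Stmn4 and runs away from it on the opposite strand, had 0 UMIs.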

How the data were processed

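The authors converted the reads with bcl2fastq, split them by BC1 for the 3 lines, trimmed the template-switch oligo with Cutadapt, and used STARsolo to align and count them (GRCm39, GENCODE M30). The deposited tables hold UMI counts that were neither normalized nor filtered for cells. The counting mode (exons alone or whole genes) is not given in the sources used here.

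Barcodes with at least 1000 UMIs and at most 20% UMIs of mt- genes were kept in each matrix, and doublets were not called. UMIs were summed per line as CPM, with exact 95% intervals. Lines were compared as log2(CPM + 1), at a limit of 2-fold, among genes with at least 10 CPM in 1 line of a pair. Pearson residuals (theta of 100) gave r, with genes of at least 20 CPM and a limit of 0.1. The squared coefficient of variation of the rate was a moment estimate beyond Poisson noise. For the groups of mESCs, log values of counts per 10000 were taken, mt-, ribosomal protein and stathmin genes were left out, and Leiden ran at a resolution of 0.5 on 100 neighbors in 50 principal components of 150 variable genes. The steps for folds, spread and r from residuals were tested on simulated data with known folds, spread and co-varying genes, and the clustering was not. Clustering used leidenalg 0.10.2, igraph 0.11.9 and scikit-learn 1.9.0, figures matplotlib 3.10.9, and the rest scipy 1.17.1, numpy 2.4.6 and pandas 2.3.3 under Python 3.11.15. Positions came from GENCODE M39 on GRCm39, which held 32953 of the 33565 genes.

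The members and the gene lists were chosen with earlier results of these data known. The genes named were the members, the 10 genes of highest r with each member and the 5 of lowest r with Stmn2, list genes past 2-fold or at 100 CPM, markers, and the nearest annotated genes. From these, the text gives those it describes, and the values of some genes under this rule are not reported here. The alternatives changed the cell filter, the totals, the scaling, the pseudocount, the limits, the depth, the measure of correlation and the clustering.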

Additional observations from a re-analysis of the deposited data

How the results depend on the processing

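No value that was called changed sign between lines under any alternative run. Stricter cell filters raised the share of positive cells with depth. With at least 2000 UMIs, Stmn1 was positive in 83.8% of N2a cells, 49.2% of NIH/3T3 cells and 36.0% of mESCs, Stmn2 in 49.5% of mESCs and Stmn3 in 57.3% of N2a cells, and with STARsolo's rule for calling cells these shares were 86.0%, 47.4%, 35.1%, 48.8% and 59.7%, with Stmn4 in 15.1% of N2a cells. Without the deepest 5% of cells Stmn1 was positive in 42.7% of NIH/3T3 cells and 29.9% of mESCs. Thinned to 1000 UMIs, shares were 28.6%, 11.6% and 6.99% for Stmn1, 13.7% for Stmn2 in mESCs, and 12.1% and 2.04% for Stmn3 and Stmn4 in N2a. With mt- and ribosomal protein genes out of the totals, levels were 373.3, 141.2 and 88.8 CPM for Stmn1 in N2a, NIH/3T3 and mESCs, 181.2 for Stmn2 in mESCs, and 143.3 and 23.7 for Stmn3 and Stmn4 in N2a. With a pseudocount of 5 CPM, log2 ratios of mESCs to N2a were 4.97 for Stmn2, -3.96 for Stmn3 and -2.17 for Stmn4, that of mESCs to NIH/3T3 was 4.90 for Stmn2, and those of N2a to NIH/3T3 were 4.46 for Stmn3 and 2.35 for Stmn4. Scaling by the median ratio of 3112 genes shifted log2 ratios by at most 0.04.

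Without a filter on low values, 3647 genes were higher and 3456 lower in mESCs than in N2a, 4199 higher in mESCs than in NIH/3T3, and 3361 higher and 2826 lower in N2a than in NIH/3T3. At 4-fold these counts were 1218 and 1158, 1271 and 1100, and 1126 and 1015. For Stmn2 in mESCs, cells at 0 were 1.01 times the Poisson expectation after thinning, against 1.19 at full depth. The squared coefficient of variation of the Stmn2 rate was 0.7945 after thinning, against 0.5995 at full depth. Genes at 0.1 or more and at -0.1 or less with Stmn2 in mESCs, Stmn1 in N2a and Stmn3 in N2a numbered 231 and 19, 625 and 5, and 354 and 0 from log values, 530 and 13, 424 and 37, and 1004 and 1 from Spearman's rho, and 0 and 0, 1 and 0, and 0 and 0 after thinning. For Stmn3, STARsolo's rule gave 219 and 167, and leaving out the deepest cells 58 at -0.1 or less. In a fit with the S and G2/M sums, chosen after seeing the data, 17 genes for Stmn2 in mESCs were at -0.1 or less, against 32 without it. For Stmn1 in N2a these counts were 153 and 240. At 0.1 or more, the same fit gave 20 genes for Stmn2, against 25, and 196 for Stmn1 in N2a, against 262. After thinning, r was -0.00196 for Bach2 with Stmn2, -0.00933 for Rpl39 with Stmn3 and -0.0108 for Klhl29 with Stmn4. Causes of these changes were not tested. Leaving out each BC1 sequence in turn gave 333.6 to 339.7 CPM for Stmn1 in N2a and 159.1 to 164.0 CPM for Stmn2 in mESCs. Cells without any UMI of the G2/M list numbered 5 to 69 per line, too few for r, so this alternative was not run. No paired analysis was possible because each line was 1 sample.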
